A study of Mus musculus with 22 samples.

Results

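Neutrophil granule genes and the neutrophil genes S100a8, S100a9, Stfa1 and Stfa2 were followed through every slab of 3 mouse brains measured by Transcriptome Tomography, a method that cuts a frozen brain in series along a single body axis, collects consecutive slices as slabs and reads the RNA of each slab, or fraction, on a microarray. The members were S100a8, S100a9, Stfa1, Stfa2, the early granule genes Elane and Mpo, and the late granule genes Ngp, Camp, Ltf and Lcn2. These are 10 of the 20129 gene symbols read from the arrays. S100a8, Stfa1 and S100a9 were chosen for their gradient from one side of the brain to the other in the sagittal series, so that gradient is described here without a test. The other members were added by name, as genes of the same cells. Each gene was read from the RefSeq-identified probe with the highest median over the 22 arrays, and Camp alone had another probe.

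A separate mouse was cut for each axis, giving 10 coronal, 6 horizontal and 6 sagittal fractions. All 3 were male C57BL/6J mice raised without pathogens, and the labels named no treatment and no genetic change. The titles gave their age as 7 days after birth, and the age field gave 3 days. From which end the numbering starts is not given in the labels. The last coronal, first sagittal and last sagittal fractions pooled more than 1 slab, with slabs 7 to 9 in sagittal fraction 6. Each fraction was measured on 1 array and each axis in 1 mouse, so neither a fraction nor an axis had a replicate, and section plane, animal and most of the slide layout cannot be told apart. A level below is log2 of the processed intensity minus log2 of the 75th percentile of its array, so 0 stands for that percentile. The level of a member was compared between fractions and never with that of another gene, and a summed level of a list adds the linear levels of its probes on 1 array.

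Neutrophils are made in the bone marrow, and their granule proteins are produced in waves. The protease Elane and the peroxidase Mpo fill the azurophil granules of promyelocytes. Ltf, Camp, Ngp and Lcn2 are made later, when the specific granules form. S100a8 and S100a9 are calcium-binding alarmins that pair into calprotectin, the most abundant cytosolic protein of mature neutrophils, and the stefins A are small inhibitors of cysteine cathepsins whose mouse genes lie in a cluster. A healthy brain holds few neutrophils in its tissue. They are found in its blood, in the meninges and in the marrow of the skull. In these bulk fractions, fewer cells of a type and less RNA per cell cannot be told apart.

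S100a8 and S100a9 are neighbours on chromosome 3, and Stfa1 and Stfa2 lie in the stefin A cluster on chromosome 16. The first 3 of these genes moved together more closely than the last did with them. For this reason the 250 bases before the transcription start of each are shown. They are RefSeq sequences of the GRCm38.p6 build, 5′ to 3′ on the strand of the gene, at chr3:90668821-90669070 (+), chr3:90695722-90695971 (-), chr16:36276898-36277147 (+) and chr16:36408364-36408613 (-). All 10 members matched the promoter table. Capitals mark matches on either strand to TTGCNNAA, the core of C/EBP sites, and to GAGGAAGT, a PU.1 site, which are factors of the granulocyte lineage.
S100a8: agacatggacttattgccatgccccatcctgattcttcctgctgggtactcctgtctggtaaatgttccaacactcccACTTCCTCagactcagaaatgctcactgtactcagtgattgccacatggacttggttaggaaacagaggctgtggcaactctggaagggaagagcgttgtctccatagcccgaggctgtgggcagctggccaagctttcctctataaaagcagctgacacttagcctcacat
S100a9: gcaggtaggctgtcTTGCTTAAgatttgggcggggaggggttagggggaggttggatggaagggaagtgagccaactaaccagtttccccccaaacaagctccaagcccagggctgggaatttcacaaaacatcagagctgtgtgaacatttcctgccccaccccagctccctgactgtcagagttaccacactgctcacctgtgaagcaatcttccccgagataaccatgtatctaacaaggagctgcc
Stfa1: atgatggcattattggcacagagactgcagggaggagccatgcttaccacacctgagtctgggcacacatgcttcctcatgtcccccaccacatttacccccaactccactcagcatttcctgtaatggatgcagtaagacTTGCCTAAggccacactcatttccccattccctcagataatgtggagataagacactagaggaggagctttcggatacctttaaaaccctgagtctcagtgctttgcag
Stfa2: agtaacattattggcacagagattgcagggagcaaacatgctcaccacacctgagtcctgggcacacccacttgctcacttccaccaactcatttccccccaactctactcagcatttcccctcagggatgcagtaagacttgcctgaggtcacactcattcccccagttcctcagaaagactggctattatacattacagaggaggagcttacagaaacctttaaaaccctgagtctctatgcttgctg
TTGCNNAA was found in the 250 bases of 5 of the 10 members, namely S100a9, Stfa1, Ngp, Ltf and Lcn2, and in 9.56% of the 32851 promoters of the table. GAGGAAGT was found in 3 members, S100a8, Elane and Mpo, and in 2.44% of all promoters. Neither was found in the window of Stfa2 or of Camp. In a global alignment, 81.6% of the Stfa1 window was identical to that of Stfa2, against 55.2% for S100a8 and Stfa1 and 50.4% for S100a8 and S100a9. The matches are a description of these letters and were not tested against binding.

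The number of probes above background ran from 29605 to 41965 per array, and the 75th percentile of processed intensity lay between 259 and 603. The neuronal genes Snap25, Syt1, Rbfox3 and Tubb3 were well above background on all 22 arrays. Hoxb5, a gene of the hindbrain and spinal cord, had its highest level of 4.44 in coronal fraction 1, and the forebrain gene Tbr1 had its highest, 4.58, in coronal fraction 9. On 7 arrays (coronal fractions 1 and 2, horizontal fractions 1 to 3, sagittal fractions 1 and 3) the slope of the spike-in controls lay outside the accepted range of the scanner software. These arrays had more probes above background, 36119 to 41965 against 29605 to 36342 on the other 15. S100a8, S100a9, Stfa1, Stfa2, Elane, Camp and Lcn2 were well above background on all 22 arrays, Mpo on 16, Ltf on 5 and Ngp on 4. All 10 belonged to the 39621 probes tested, those well above background in at least 1 fraction of every series.

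S100a8 was highest in sagittal fraction 6, at 1.91. In the other 5 sagittal fractions it lay between -4.51 in fraction 3 and -2.21 in fraction 5, so sagittal fraction 6 stood 20.2-fold above their median. The horizontal series fell from 0.51 in fraction 1 over -0.44, -1.18 and -2.57 to -3.06 in fraction 5, and fraction 6 was at -0.81. The coronal series was high in fractions 1 to 3 (-1.67, -1.70 and -1.27), low in fractions 4 to 7 (-3.52, -3.85, -4.26 and -4.29) and intermediate in fractions 8 to 10 (-2.64, -3.35 and -2.83). The first 3 coronal fractions did not overlap with the next 4. The scanner error of these values was between 0.14 and 0.30 log2 units, which covers the spot and not the labelling or the animal.

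S100a9 followed the same course. It was at 3.10 in sagittal fraction 6, 15.4-fold above the median of the other 5 sagittal fractions, which ran from -2.92 to -0.53. In the horizontal series it fell from 2.07 in fraction 1 to -1.44 in fraction 5 and was at 1.06 in fraction 6. In the coronal series it was between 0.04 and 0.33 in fractions 1 to 3, between -3.11 and -1.53 in fractions 4 to 7, and between -1.56 and -0.86 in fractions 8 to 10. Stfa1 was at 1.49 in sagittal fraction 6, 17.7-fold above the median of the other 5, and ran from -4.60 to -2.47 in them. Its horizontal levels fell from 0.27 in fraction 1 to -3.18 in fraction 5, with -0.70 in fraction 6, and its coronal levels were lowest in fraction 7, at -4.55. Over the 22 arrays the Pearson r was 0.990 for S100a8 with S100a9, 0.989 for S100a8 with Stfa1 and 0.993 for S100a9 with Stfa1, and no r between these genes was under 0.982 within any series. Without sagittal fraction 6 the values were 0.991, 0.987 and 0.992. All points of these correlations share the scaling of their array.

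**Figure D1:**
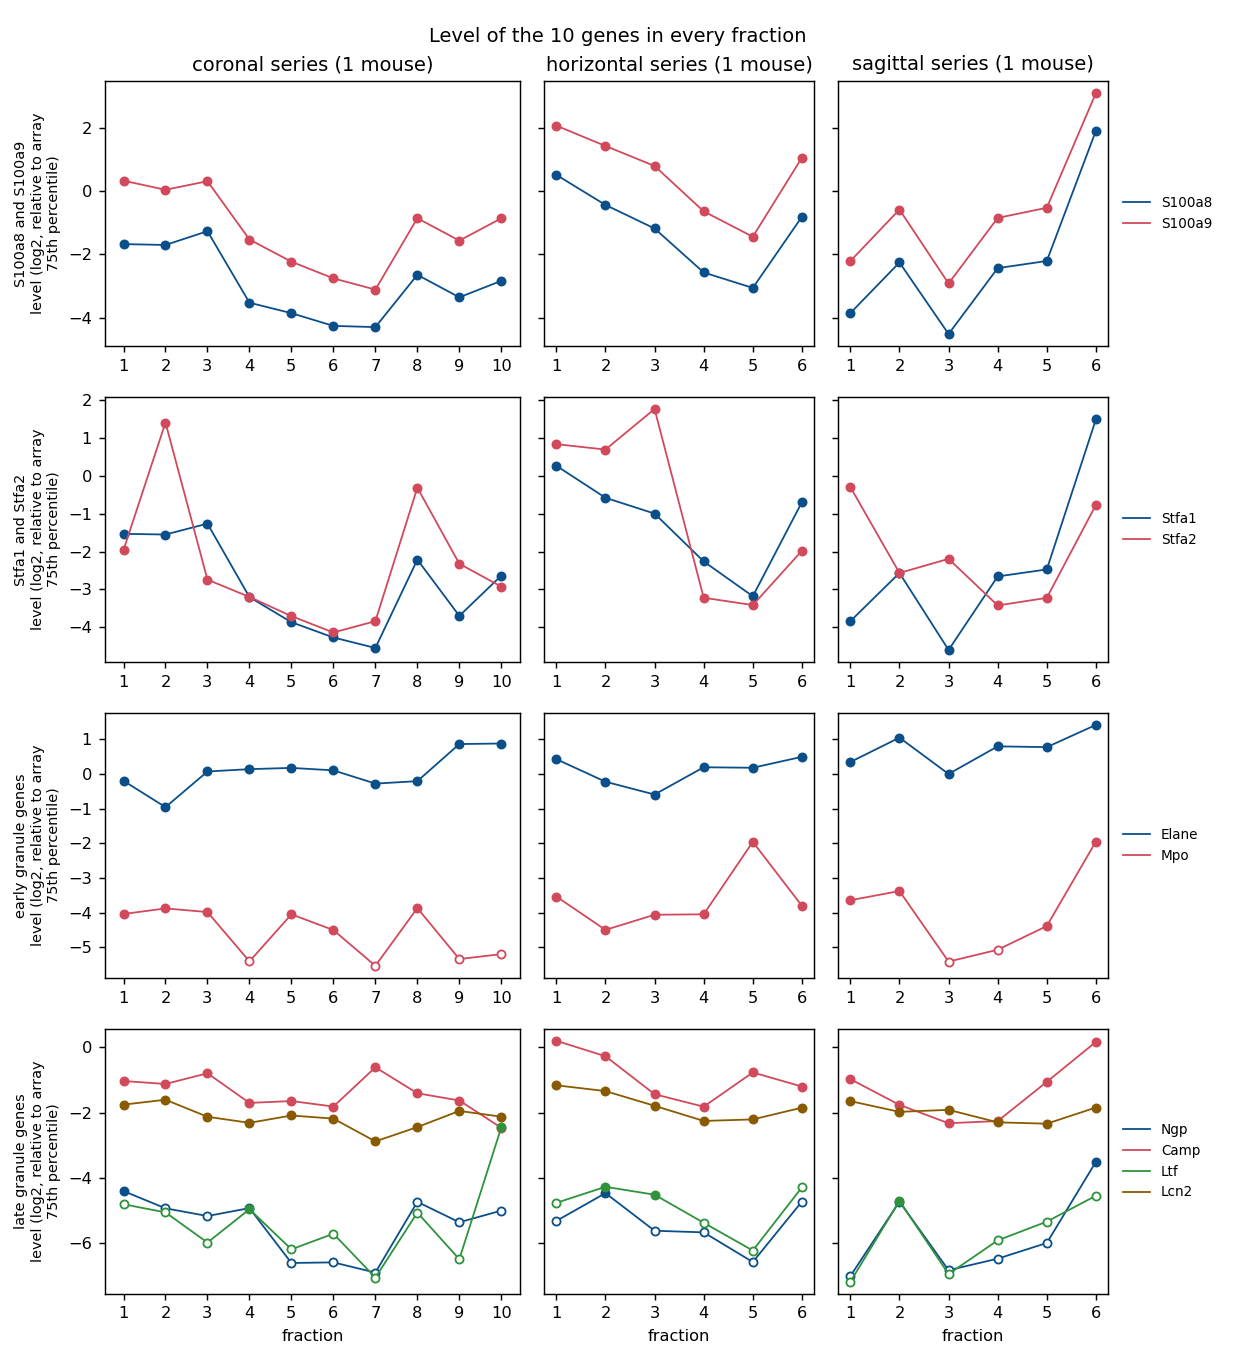
Level of each of the 10 genes (y axis, log2 relative to the 75th percentile of the array) in every fraction (x axis) of the coronal, horizontal and sagittal series, each of 1 mouse, with 1 array per point. Filled points are well above background and open points are not. S100a8, S100a9 and Stfa1 rise and fall together and are highest in sagittal fraction 6, Stfa2 has its highest levels in horizontal fraction 3 and coronal fraction 2, and Ltf has its highest in coronal fraction 10.

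The fitted difference from the first to the last slab of the sagittal series was 5.04 ± 1.05 (SE) for S100a8, 4.66 ± 1.12 for S100a9 and 4.70 ± 1.11 for Stfa1, as a description. It was positive for 8 of the 10 members, with a median of 1.65. Without sagittal fraction 1 that median was -0.30, and with the ribosomal protein shift described below in the model it was -0.018. Position along the coronal and horizontal axes was tested with limma, in 1 model of all 22 arrays with a linear and a quadratic term for each series. The fit called none of the 10 members for coronal position at an adjusted p under 0.05, where 19.8% of the 39621 probes were called. At an unadjusted p under 0.05 there were 6 members (S100a8, S100a9, Stfa1, Elane, Ltf and Lcn2), beside 38.8% of all probes. Their adjusted p in limma was 0.0802 for S100a8, 0.0573 for S100a9 and 0.0756 for Stfa1, with fitted ranges along the axis of 2.65, 3.08 and 2.84 log2 units. Without coronal fraction 8 all 3 were called, with adjusted p in limma of 0.0486 for S100a8, 0.0334 for S100a9 and 0.0321 for Stfa1, and 25.8% of all probes were called in that fit. S100a9 was also called without horizontal fraction 6 (0.0407) and without sagittal fraction 2 (0.0418). With the slide as a block the adjusted p was 0.265 for S100a8, 0.208 for S100a9 and 0.236 for Stfa1 in limma, where 4.03% of all probes were called. Over all alternatives the adjusted p of the 3 genes ran from 0.0321 to 0.468. Coronal fractions 1 to 3 all lay above fractions 4 to 7 for 5 members (S100a8, S100a9, Stfa1, Stfa2 and Mpo), and so they did for 20.1% of all probes.

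The fit also called none of the 10 members for horizontal position, where 6.58% of the probes were called. At an unadjusted p under 0.05 there were 4 (S100a8, S100a9, Camp and Lcn2), beside 38.0% of all probes. The adjusted p in limma was 0.0946 for S100a8, 0.126 for S100a9 and 0.141 for Stfa1. Horizontal fractions 1 to 3 had a spike-in slope out of range and fractions 4 to 6 did not. Horizontal position and this property of the arrays cannot be told apart for any gene. With the signal of a dim spike-in control in the model, 0.252% of all probes were called for horizontal position. With only the arrays in range it was 0.0328%. In horizontal fraction 1, S100a8 was 3.57 log2 units above fraction 5, and 10.2% of all probes were over 3 units higher in that pair. From horizontal fraction 5 to fraction 6, S100a8 was 4.74-fold, S100a9 5.64-fold and Stfa1 5.60-fold higher. Between these 2 fractions 1.18% of all probes were over 2 log2 units higher. The same fraction 6 held the highest summed level of the border macrophage genes (17.0 times the 75th percentile, against at most 6.60 in any coronal or sagittal fraction) and of the meningeal fibroblast genes (109 against at most 59.9). The sums of the monocyte genes (7.73, against at most 3.69), the platelet genes (26.3, against at most 14.7) and the microglial genes (99.2, against at most 73.7) were also highest there. The same held for the NADPH oxidase genes (20.9, against at most 18.4) and the endothelial genes (50.1, against at most 49.9). The sum of the eosinophil, basophil and mast cell genes (0.65, against at most 0.51) was highest there too. So was that of the other early granule genes (5.57, against at most 2.54), of which Srgn, a proteoglycan gene of many blood cells, alone had its highest level (2.35) in that fraction. The part of these cells in the S100a8 levels was not tested.

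Ribosomal protein genes moved across the arrays with S100a8, S100a9 and Stfa1. This list, of the 80 ribosomal protein genes among the tested probes, was added after the data were seen. Its genes had a median r of 0.913 with S100a8 (0.053 to 0.968), and 64 of the 80 passed 0.85, beside 2.71% of all tested probes. The median shift of the list, each gene taken from its own median, ran from -0.53 in sagittal fraction 3 to 1.20 in sagittal fraction 6, with 1.04 in horizontal fraction 1. S100a8 had an r of 0.944 with this shift, S100a9 0.930 and Stfa1 0.943, and S100a8 rose by 3.33 log2 units for each unit of it. Within the series the r of S100a8 with it was 0.932 (coronal), 0.886 (horizontal) and 0.950 (sagittal).

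A line fitted through the other 21 arrays put S100a8 at 1.37 in sagittal fraction 6, and the measured level was 0.54 above it, where the SD of the 21 around the line was 0.55. S100a9 lay 0.17 below its line (SD 0.63) and Stfa1 0.07 above (SD 0.56). The sagittal fraction 6 levels of these 3 genes all lay within 1 SD of their lines. Elane lay 1.21 above its line (SD 0.53) and Mpo 1.47 above (SD 0.84). Of the late genes, Ngp lay 0.73 above (SD 0.78), Camp 0.38 above (SD 0.58) and Lcn2 at -0.43 from its line (SD 0.35), and Ltf, not well above background there, at -0.89 (SD 0.99). Stfa2 lay at -1.44 from its line (SD 1.68). The 75th percentile to which levels are relative was lowest in sagittal fraction 6, at 259, and its log2 had an r of -0.633 with S100a8 and -0.671 with the ribosomal protein shift. With the shift taken out, S100a8 and S100a9 still had an r of 0.925, S100a8 and Stfa1 0.903, and S100a9 and Stfa1 0.951, while the range of S100a8 went from 6.42 to 2.00 log2 units. What the arrays share here, whether RNA, labelling or cells, was not tested.

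**Figure D2:**
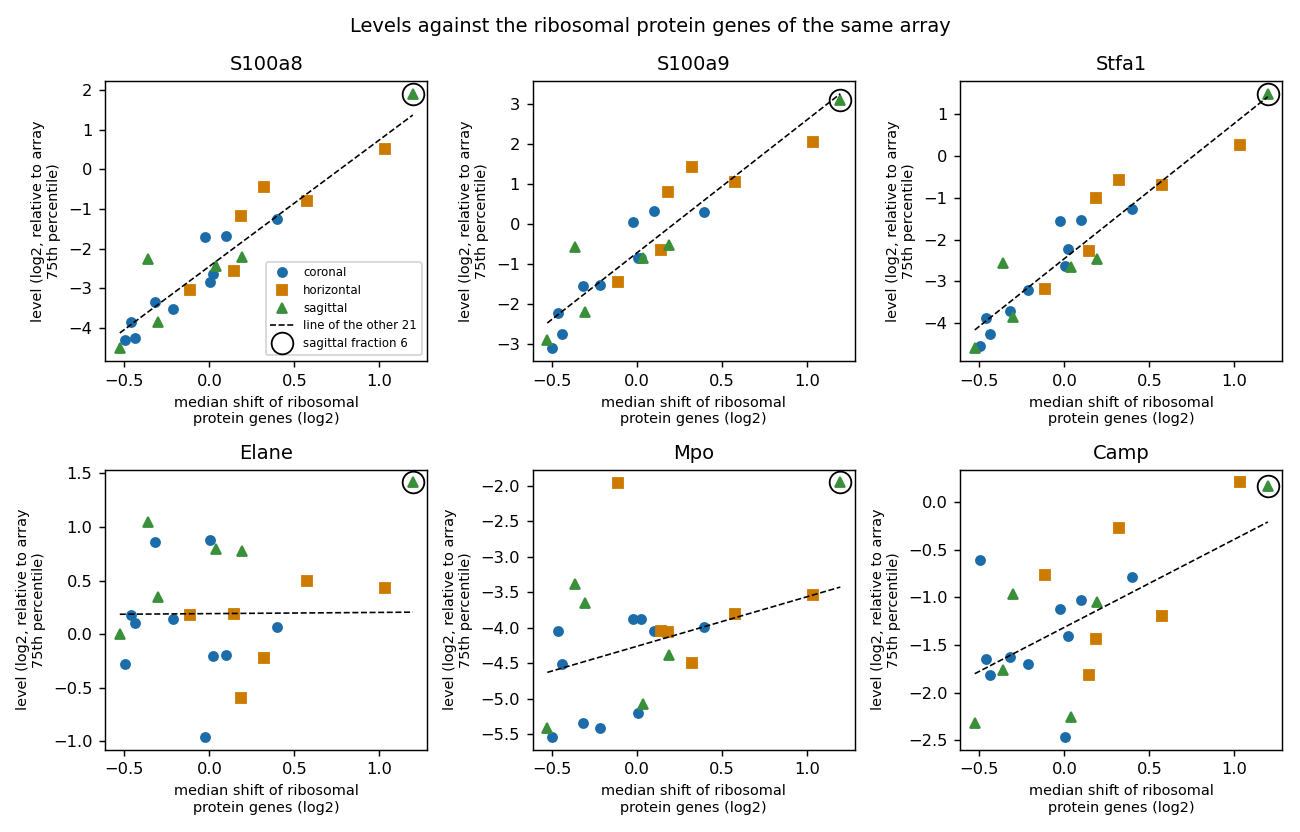
Level of 6 of the genes (y axis, log2 relative to the 75th percentile of the array) against the median shift of 80 ribosomal protein genes on the same array (x axis, log2), 1 point per array, with symbols for the 3 series. The dashed line is fitted through the 21 arrays other than sagittal fraction 6, which is circled. The circled point lies near the line for S100a8 (0.54 above), S100a9 (0.17 below) and Stfa1 (0.07 above) and further above it for Elane (1.21) and Mpo (1.47).

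Among the other genes most like S100a8 over the 22 arrays were Stfa3, another stefin A (r = 0.969), the ribosomal protein genes Rps18 (0.959) and Rpl34 (0.955), and Mrpl53, of the mitochondrial ribosome (0.952). In all, 1072 probes had an r above 0.85 with S100a8, 881 with S100a9 and 963 with Stfa1. The other genes of the stefin A cluster were read from a list of 9, of which 6 had a probe. Of these, 5 were over 1 log2 unit higher in sagittal fraction 6 than their median over the other fractions, namely Cstdc4 (4.21), Cstdc5 (3.88), Stfa3 (3.20), Stfa2l1 (2.81) and Csta2 (2.44), beside 15.5% of all probes, and Cstdc6 was not well above background on any array. Coronal position was called for none of the 5 tested genes of the cluster, beside 19.8% of all probes, and horizontal position for 1, beside 6.58%. This was Stfa3, which fell by 1.40 from the first slab to the last (adjusted p = 0.0494 in limma). The 10 other S100 genes listed from the S100 cluster had a median shift of 1.19 in sagittal fraction 6. S100a5, a gene of olfactory neurons, had the widest range of them and was highest in coronal fraction 10, at 3.45. S100a14 and S100a10 were next in range, with highest levels of -3.08 in sagittal fraction 4 and 5.63 in sagittal fraction 6. Their median r with S100a8 was 0.59, against 0.19 for all probes. Of the receptors of the S100a8 and S100a9 proteins, Tlr4 was well above background on 17 arrays and Ager on none.

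Stfa2, 81.6% identical to Stfa1 in the window shown, followed a partly different course. Its highest levels were 1.76 in horizontal fraction 3, 1.41 in coronal fraction 2, 0.84 in horizontal fraction 1 and 0.69 in horizontal fraction 2. In sagittal fraction 6 it was at -0.77, below sagittal fraction 1 at -0.30, and its lowest level was -4.14 in coronal fraction 6. Its r with Stfa1 was 0.596 and with S100a8 0.566, both over 22 arrays. Within the series its r with Stfa1 was 0.673 (coronal), 0.774 (horizontal) and 0.244 (sagittal). On the 7 arrays whose spike-in slope was out of range its levels ran from -2.19 to 1.76 with a median of 0.69, and on the other 15 from -4.14 to -0.31 with a median of -3.20. The ranges of the 2 kinds of array overlapped. Stfa2 had an r of 0.829 with the signal of a dim spike-in control on the same array, against 0.286 for Stfa1 and 0.278 for S100a8. Of the probes with an r above 0.85 to Stfa2 there were 2456, and 4 once that signal was taken out of both. The fitted fall along the horizontal axis was -4.48 ± 1.80, with an adjusted p of 0.161 in limma. The part of the spike-in signal in these levels was not tested.

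**Figure D3:**
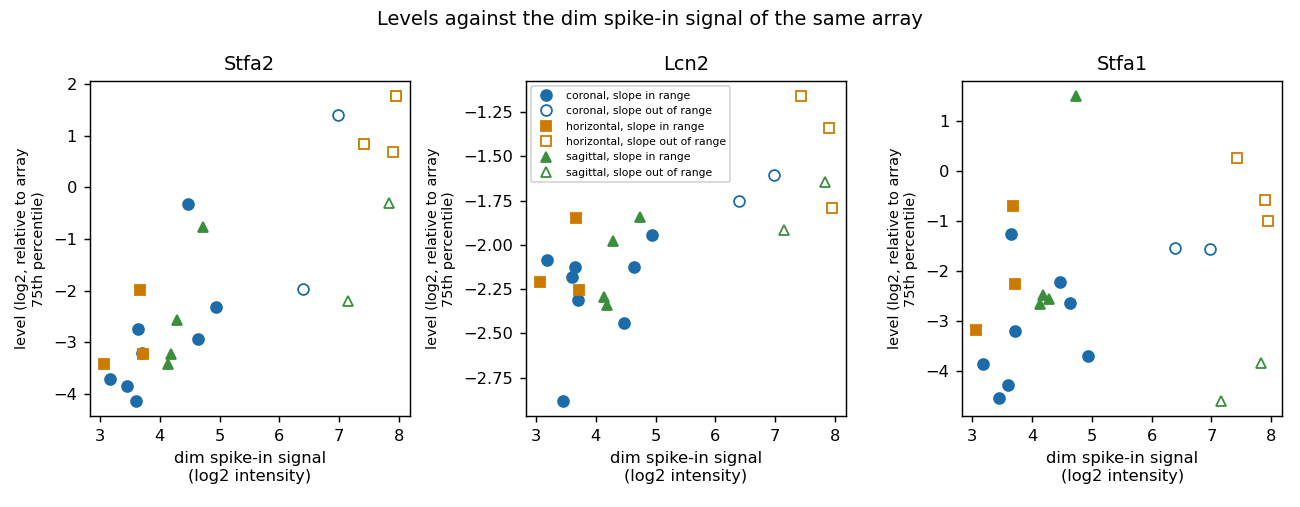
Level of Stfa2, Lcn2 and Stfa1 (y axes, log2 relative to the 75th percentile of the array) against the signal of a dim spike-in control on the same array (x axis, log2 intensity), 1 point per array, with open points for the 7 arrays whose spike-in slope was out of range. Stfa2 (r = 0.829) and Lcn2 (r = 0.765) are higher where that signal is higher, and Stfa1 (r = 0.286) has low and high levels on both kinds of array.

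Of the early granule genes, Elane stayed close to the 75th percentile everywhere. Its 22 levels ran from -0.96 in coronal fraction 2 to 1.42 in sagittal fraction 6, with a median of 0.18. In the sagittal series it was at 0.34, 1.05, -0.00, 0.80, 0.77 and 1.42, and in coronal fractions 9 and 10 at 0.86 and 0.88, above the other 8 coronal fractions. Sagittal fraction 6 was 1.56-fold above the median of the other sagittal fractions. Its coronal rise was 1.14 ± 0.42 from the first slab to the last, with an adjusted p of 0.124 in limma (from 0.0316 to 0.758 over the alternatives, the lowest with the spike-in signal in the model). Elane was the 1 member whose series means differed at an unadjusted p under 0.05, with means of 0.06 (SD 0.54), 0.08 (SD 0.42) and 0.73 (SD 0.50) in the coronal, horizontal and sagittal series. The adjusted p of that test in limma was 0.450. Coronal fractions 9 and 10 were on the same slide as all 6 sagittal arrays, and with the slide as a block the coronal difference of Elane turned to -0.49 ± 0.62 (adjusted p = 0.758 in limma) and the unadjusted p of the series test was 0.648. For Elane, position, series and slide cannot be told apart. The fit called none of the 10 members for series, beside 0.00757% of all probes, and 10.1% of all probes had an unadjusted p under 0.05.

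Mpo had equal peaks in different mice, at -1.95 in sagittal fraction 6 and -1.96 in horizontal fraction 5. The other 14 arrays on which it was well above background ran from -4.51 to -3.38. Background was not clearly passed in coronal fractions 4, 7, 9 and 10 and sagittal fractions 3 and 4. Sagittal fraction 6 was 5.42-fold above the median of the other 5 sagittal fractions. Horizontal fraction 5 was the fraction in which S100a8, S100a9 and Stfa1 were lowest in their series, so within the horizontal series the r of Mpo with S100a8 was -0.524, over 6 arrays, against 0.800 over the 6 sagittal arrays. The genes most like Mpo over the 22 arrays were Micalcl (r = 0.715), Olfr332 (0.711), 1700001G17Rik (0.695), Lin7a (0.643) and Cd109 (0.642), none of them a granule gene, and no probe had an r above 0.85 with it. Its r with Elane was 0.176.

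Of the late granule genes, Ngp was well above background on 4 arrays, at -3.51 in sagittal fraction 6, -4.41 in coronal fraction 1, -4.47 in horizontal fraction 2 and -4.73 in sagittal fraction 2. Its other levels were not well above background and have no order. With every such level set no lower than the dimmest signal called above background on its array, sagittal fraction 6 stood at least 3.98-fold above the median of the other 5 sagittal fractions. The genes most like Ngp were Rps14 (r = 0.800), Taar4 (0.797), C2cd4a (0.791), Rpl13 (0.787) and Olfr555 (0.783), over 22 arrays of which most hold no measured Ngp level. Ltf was well above background on 5 arrays, with its highest level of -2.45 in coronal fraction 10 and levels between -4.96 and -4.27 on the other 4. That coronal fraction stood at least 6.42-fold above the median of the other 9. S100a8 was at -2.83 there, Mpo and Ngp were not well above background, and the olfactory neuron gene Omp was 4.80 and Il1b 1.83 above their medians over the other coronal fractions. The median of the same difference was 0.23 over the 5 olfactory epithelium genes and 0.12 over the 13 receptor and signalling genes of mature neutrophils. The summed level of the olfactory epithelium genes was the highest of the coronal series there, at 6.63 against a coronal median of 1.49. Among the lists with larger medians were the S100a8 and S100a9 receptors (0.82), the monocyte genes (0.81) and the border macrophage genes (0.81). Others were the meningeal fibroblast genes (0.71), S100a8 with S100a9 (0.60) and the osteoblast genes (0.59). The summed levels of the monocyte and border macrophage lists were also among those highest of the coronal series in that fraction. The part of any of these tissues in that Ltf level was not tested.

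Camp was measured on all 22 arrays and had no single peak. Its highest levels were 0.21 in horizontal fraction 1, 0.17 in sagittal fraction 6, -0.27 in horizontal fraction 2 and -0.61 in coronal fraction 7, and its lowest was -2.46 in coronal fraction 10. Sagittal fraction 6 was 3.82-fold above the median of the other sagittal fractions. The other Camp probe, with an r of 0.698 to the one used, had -0.95 in horizontal fraction 1 and -0.69 in sagittal fraction 6, where it was 1.27 above its median over the other fractions. For horizontal position the adjusted p of Camp in limma was 0.0942, and 0.0429 with both probes averaged. Lcn2, a siderophore-binding lipocalin that is also made by astrocytes and epithelia, had the narrowest range of the members, 1.72 log2 units, from -2.88 in coronal fraction 7 to -1.16 in horizontal fraction 1. In sagittal fraction 6 it was at -1.84, 1.10-fold the median of the other sagittal fractions and below sagittal fraction 1. Its horizontal fall was -0.93 ± 0.30 with an adjusted p of 0.0687 in limma (0.0425 to 1 over the alternatives). Lcn2 had an r of 0.765 with the dim spike-in signal, and its levels on the 7 arrays out of range ran from -1.91 to -1.16, against -2.88 to -1.84 on the other 15.

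The early and late genes were compared by their differences from their own median over the other 21 fractions. In sagittal fraction 6 the early genes Elane and Mpo stood 1.24 and 2.10 above it, with a mean of 1.67. The late genes Ngp, Camp, Ltf and Lcn2 stood 1.86, 1.58, 0.79 and 0.24 above it, with a mean of 1.12. Ltf was not well above background there, and over the 22 arrays Ngp and Ltf were measured on 4 and 5, so the mean of the late genes rests in part on levels that have no order. Late minus early was -0.55 in that fraction, 0.06 when set against the sagittal arrays alone and -0.93 with the ribosomal protein shift taken out of each gene. The genes measured on every array were Camp and Lcn2 of the late genes and Elane of the early ones, a choice made after the data were seen. Camp and Lcn2 together stood 0.91 above their medians in sagittal fraction 6, below 1.27 in horizontal fraction 1 and 0.94 in horizontal fraction 2, while Elane was highest in sagittal fraction 6. Camp and Lcn2 minus Elane was -0.33 in sagittal fraction 6, and over the other 21 fractions it ran from -1.41 in coronal fraction 10 to 1.52 in coronal fraction 2, with an SD of 0.82. For these measured genes the difference in sagittal fraction 6 was smaller than the SD between fractions. Against the median of the other 5 sagittal fractions, Camp stood 1.93, Lcn2 0.13 and Elane 0.64 higher. The mean of Camp and Lcn2 then lay above Elane, so the sign of the difference turned. In horizontal fraction 5 the early genes stood apart from each other, with Mpo 2.09 above its median and Elane at it. S100a8 and S100a9, with a mean of 4.21 in sagittal fraction 6, were further from their medians than any granule gene among the members. Both were chosen for their sagittal gradient, so this describes the choice.

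**Figure D4:**
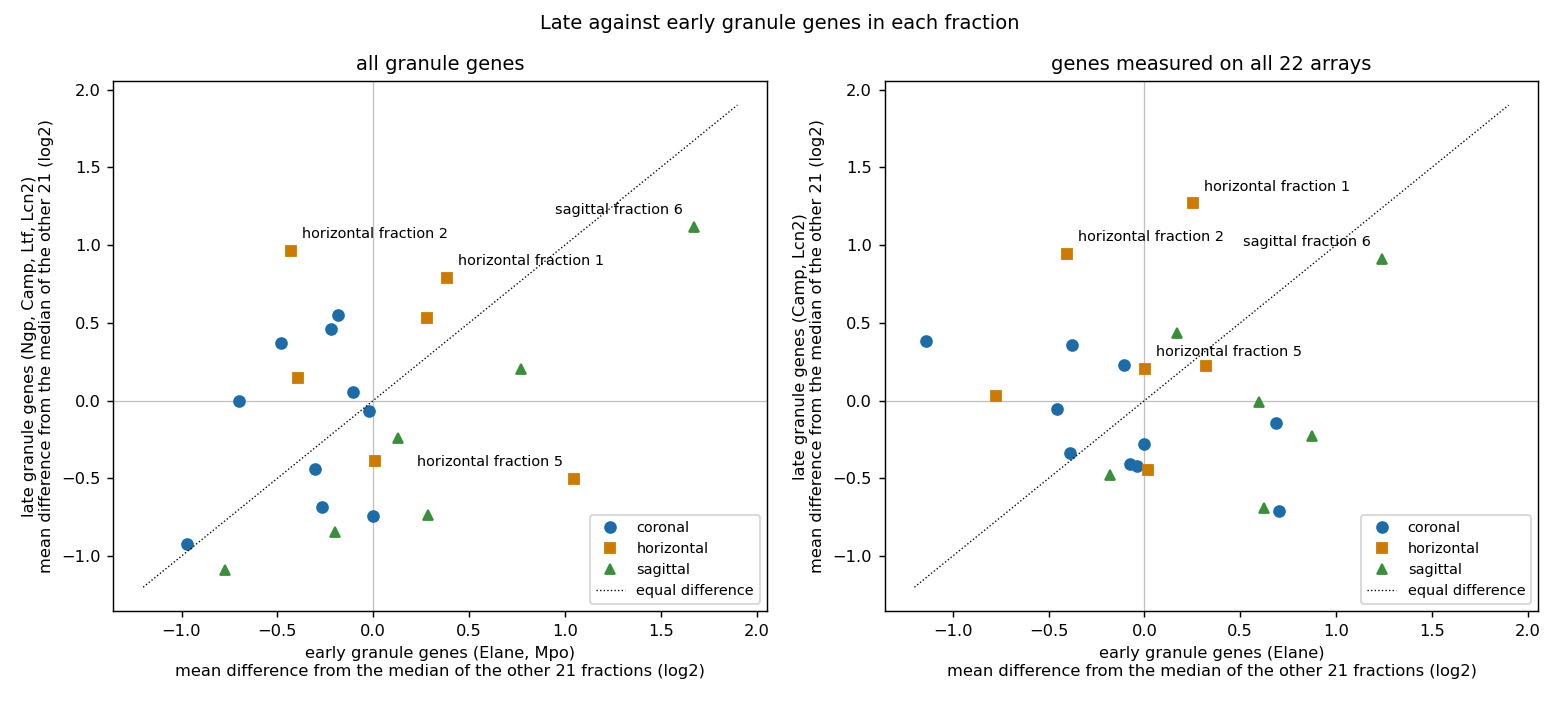
Mean difference of late granule genes (y axis, log2) against that of early granule genes (x axis, log2), each gene taken from its own median over the other 21 fractions, with 1 point per fraction, symbols for the 3 series and a dotted line for equal differences. The left panel uses all 6 genes, with levels of Ngp, Ltf and Mpo that are not well above background included, and the right panel the genes measured on all 22 arrays (Camp and Lcn2 against Elane). Sagittal fraction 6 is highest on both axes at left, and at right horizontal fraction 1 (1.27) and horizontal fraction 2 (0.94) lie above it (0.91) on the late axis.

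In sagittal fraction 6, 8 of the 10 members were over 1 log2 unit above their median over the other fractions, beside 15.5% of all probes, and 6 had their highest level there (S100a8, S100a9, Stfa1, Elane, Mpo and Ngp), beside 16.9%. This fraction was part of the choice of S100a8, S100a9 and Stfa1, so the counts are a description. S100a8 ranked above all but 12 of the 39621 probes by this difference, and the median of all probes was 0.17. Other neutrophil genes were read from lists. Of the 7 other early granule genes 1 was over 1 log2 unit higher, with a median of 0.49, and the 3 with the widest range were Fcnb, Gfi1 and Ms4a3, none of them well above background there. Of 9 other late granule and secretory genes with a probe, 2 were over 1 log2 unit higher, with a median of 0.30. Wfdc21, with a difference of 2.76 and an r of 0.94 with S100a8, and Mmp9, with 1.57, were both among the 3 widest in range of that list, and Mmp8 was well above background on 4 arrays and not on this one. Of 13 receptor and signalling genes of mature neutrophils 4 were over 1 log2 unit higher, 1 of them (Clec4d) without being well above background on any array. The median was 0.57, and 6 were well above background there. Cxcr2, the chemokine receptor of mature neutrophils, was not. Of the 5 genes of the phagocyte NADPH oxidase none was over 1 log2 unit higher, and Cybb was not well above background there. Coronal position was called for 1 of 4 tested genes of the early list (Ctsg), 2 of 7 of the late list and 1 of 9 of the receptor list, beside 19.8% of all probes. Horizontal position was called for 1 in each, beside 6.58%. These are small lists, and nothing is read from their counts.

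Markers of some other tissues were higher in sagittal fraction 6 and those of others were not. The counts over 1 log2 unit that follow stand beside 15.5% of all probes. The osteoblast genes Ibsp and Dmp1 were 5.99 and 4.26 above their medians over the other fractions, and 4 of 6 osteoblast genes were over 1 log2 unit higher. Of 5 osteoclast genes 4 were, with Acp5, the tartrate-resistant acid phosphatase, at 4.25 and Ctsk, the cathepsin of bone resorption, at 2.16. The summed level of the osteoclast genes was 23.9 times the 75th percentile, against at most 7.31 in any coronal or horizontal fraction, and that of the osteoblast genes 24.2, against at most 20.5. Of 4 T cell genes all 4 were over 1 log2 unit higher, Cd3g without being well above background there. Of 5 megakaryocyte and platelet genes 2 were over 1 log2 unit higher and 2 were well above background there, among them Pf4 (1.64), which border macrophages also make, and not Ppbp. Of 5 B cell genes 2 were over 1 log2 unit higher, among them Cd79b (1.13), and 3 were well above background, Igll1 not among them. The choroid plexus genes had a median difference of 1.10, with 2 of 4 over 1 log2 unit higher, and the meningeal fibroblast genes one of 0.93, with 2 of 5. Not well above background were the mast cell and basophil genes Ms4a2 and Mcpt8. The 6 microglial genes, well above background on all 22 arrays, had a median difference of -0.01. None of the 5 cartilage, 3 monocyte, 5 skeletal muscle and 5 olfactory epithelium genes with a probe was over 1 log2 unit higher, with medians of 0.03, 0.11, 0.31 and 0.10. The part of bone or marrow in the levels of the members, or of these other tissues, was not tested.

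Red blood cell genes varied with S100a8 as well. Of the 9 listed, 8 had a probe and 6 were well above background on all 22 arrays, and Epb42, of the red cell membrane skeleton, was well above background on 1. Their summed level ran from 120 to 382 times the 75th percentile in the coronal series, 229 to 555 in the horizontal series and 120 to 451 in the sagittal series, and each series reached its highest value in the fraction numbered 1, 1 and 6, respectively. The log2 of that sum had an r of 0.82 with S100a8 over the 22 arrays. Coronal position was called for all 6 tested genes of the list, among them Hbb-bt (-1.77 from the first slab to the last), beside 19.8% of all probes. Hbb-bt had an r of 0.878 with S100a8, and of 0.347 with the ribosomal protein shift taken out of both. The part of blood in the levels of S100a8, S100a9 and Stfa1 was not tested.

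**Figure D5:**
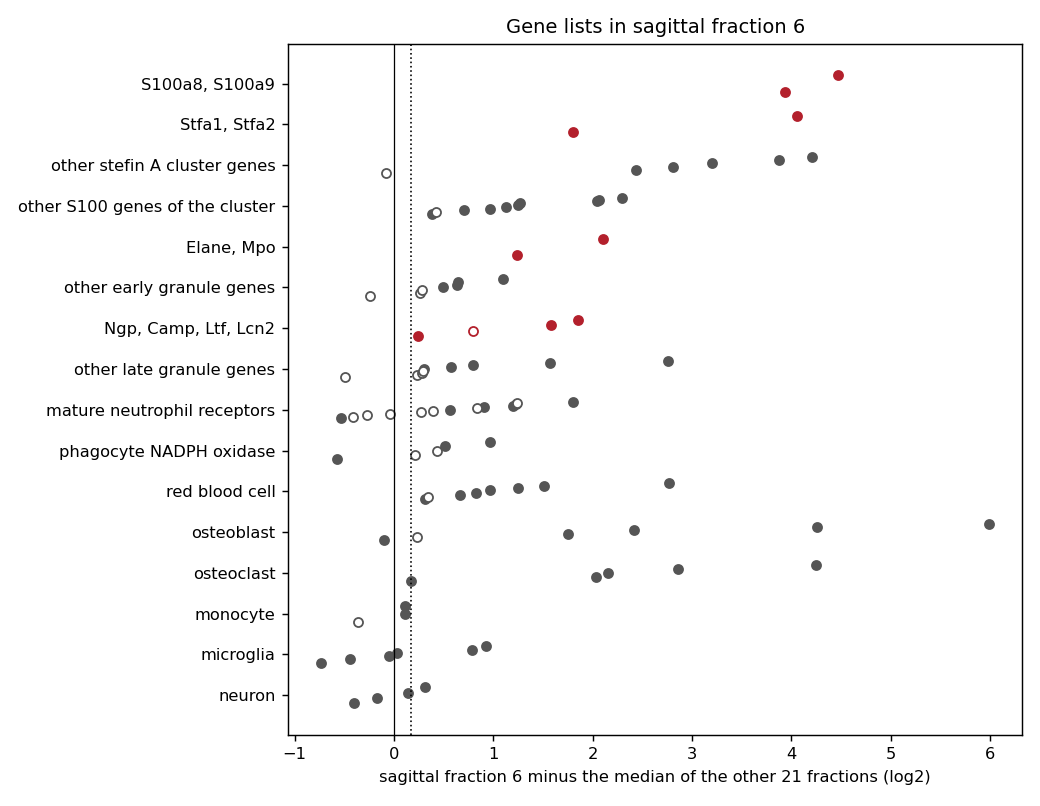
Difference of each gene in sagittal fraction 6 from its median over the other 21 fractions (x axis, log2), by gene list (y axis), with the 10 members in red, filled points well above background in that fraction and open points not. The dotted line is the median of all probes, 0.17. S100a8 (4.47), S100a9 (3.94) and Stfa1 (4.06) lie with other stefin A genes and with single osteoblast and osteoclast genes, while most other neutrophil genes lie below 1.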

How the data were processed

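Total RNA of 22 brain fractions from 3 mice was labelled with Cy3 and hybridised to Agilent SurePrint G3 arrays, 1 array per fraction. The intensity values are processed signals that Agilent Feature Extraction 10.10.1.1 had background-corrected, per the file headers, before the authors deposited them. The log2 table deposited by the authors holds log2 processed signal minus the 75th percentile of the array, and 100.0% of the values of its 47478 matched transcripts lay within 0.02 of values rebuilt from the scanner files. Here processed signals were averaged per probe and scaled in the same way. Control and outlier spots were left out, leaving 55600 probes with a value on every array, and 81 were dropped. Of 28087 probes with a RefSeq identifier 26553 matched a symbol. Well above background is the call of the scanner software.

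limma 3.58.1 in R 4.3.3 fitted a second-degree curve over slab midpoints for each series, in 1 model of all 22 arrays, with 13 residual degrees of freedom. Benjamini-Hochberg adjustment covered 39621 probes, and calls were made at 0.05. With 1 array per fraction, p-values rest on the scatter around smooth curves within single animals. Alternatives were quantile and no scaling, the authors' table, normexp (offset 50) on median spot signals since mean signals were not in the files, other filters and designs, and leaving out each array. The ribosomal protein list and covariate, and the comparison of early and late genes measured on every array, were added after the data were seen. The members and gene lists were chosen with earlier results of these data known. Genes open to naming were the members, the 5 genes most like S100a8, Ngp and Mpo, those of lists of up to 5, and the 3 of widest range in longer lists, and only some of them are named. Other genes named were chosen after their values were seen. Results for a few genes are not reported here.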

Additional observations from a re-analysis of the deposited data

Results flagged for a closer look

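Of 30 groups (10 genes in 3 series), 3 held a level set apart from the rest of its series by more than the Dixon critical value at the 95% level. Chance flags about 1 in 20 groups that were not chosen by their values. S100a8 was at 1.91 in sagittal fraction 6, with a gap of 0.641 of the range of the series to the next fraction. Stfa1 was at 1.49 in the same fraction, with a gap of 0.651 of the range. Both genes were chosen for their sagittal gradient, so these gaps describe the choice and are no test. Ltf was at -2.45 in coronal fraction 10, with a gap of 0.512 of the range.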

How the results depend on the processing

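No member was called for coronal position, but normexp background correction called 2 (S100a9 and Ltf, where 23.2% of all probes were called), testing only probes well above background on all 22 arrays called 3 of 7 (S100a8, S100a9 and Stfa1, where 32.7% of all probes were called), and the spike-in signal as a covariate called 1 (Elane, 11.4%). Leaving out single arrays gave 0 to 3, with 3 without coronal fraction 8 (25.8%). For horizontal position, where none was called, the filter on all 22 arrays gave 1 (Lcn2, 16.1%), the slide as a block 1 (Lcn2, 13.5%) and probes of a gene averaged 1 (Camp, 5.14%), and leaving out single arrays gave 0 to 1 (Lcn2 without coronal fraction 2, 16.5%). For series means no alternative or left-out array called a member. The median sagittal difference of the members, 1.65, turned to -0.018 with the ribosomal protein shift as a covariate, chosen after seeing the data, and to -0.33 on arrays with the spike-in slope in range. Leaving out single arrays gave -0.30 (without sagittal fraction 1) to 2.31. Late minus early in sagittal fraction 6, -0.55, turned to 0.062 against the sagittal arrays alone, and was -0.33 with the genes measured on all 22 arrays and -0.93 with the ribosomal protein shift taken out, both also chosen after seeing the data. The difference of the genes measured on all 22 arrays also turned positive against the other sagittal arrays. The causes were not tested. Over all probes, coronal calls ran from 634 (coronal arrays alone) to 9192 (normexp) around 7847, horizontal calls from 0 (horizontal arrays alone) to 5365 (slide block) around 2609, and series calls from 0 to 1232 (no scaling) around 3. Leaving out single arrays gave 4853 to 10680 coronal calls, 9 (without horizontal fraction 1) to 6522 horizontal calls and 0 to 88 series calls. No paired analysis was possible because a fraction number is a position along a different axis in a different mouse. Ngp and Ltf were limited by background on most arrays.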

Other observations

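The genes most like the other members were read after their values were seen, over the same 22 arrays and with no test. For Ltf they were Ccr3 (r = 0.735), Apobr (0.727), Flt3l (0.707) and Cma1 (0.696). For S100a9 they were the ribosomal protein genes Rps10 (0.952), Rps9 (0.950) and Rpl34 (0.949) and the stefin cluster genes Stfa3 (0.948) and Cstdc5 (0.947), and for Stfa1 the ribosomal protein genes Rps9 (0.965), Rpl34 (0.958) and Rps10 (0.957). Elane had 339 probes with an r above 0.85, led by E130304I02Rik and Lce1a2 (both 0.973), and no other member was among them.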
